A study of Mus musculus with 8 samples.

Results

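The collagens outside the type IV family were examined in lung epithelium of mouse embryos at stage E18.5, shortly before birth. Members were the genes with a symbol made of Col, a number, the letter a and a number, without Col4a1 to Col4a6, that had a probe set carrying no other symbol. This gave 38 genes of the 19938 on the array, read by 40 probe sets. Where a gene had more than 1 probe set, the one with the highest mean over the 8 arrays was used, which mattered for Col6a5 and Col6a6. The members were sorted by textbook role, which sets the fibrillar chains of fibroblasts apart from the chains that epithelia make. Expression is given on a log2 scale, and a difference is knockout minus control.

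The study deposited 8 single-colour arrays, 4 of control and 4 of knockout embryos, each labelled a biological replicate. Knockout embryos (Mst1/2 CKO) had lost the Hippo kinases Mst1 and Mst2 through Cre recombinase expressed from the Shh locus, which is active in the epithelial progenitors of the lung, so the deletion was aimed at epithelium and not at fibroblasts. Control embryos are labelled only as Control, and whether they carried floxed alleles or Cre is not given in the sources used here, nor is the number of embryos behind each array. All cells were freed from dissected lungs by mechanical and enzymatic dissociation and captured on magnetic microbeads against Epcam, a surface protein of epithelial cells. The comparison asks which transcripts of the epithelium shift when both kinases are missing.

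Collagens are matrix proteins of 3 chains wound into a triple helix. Fibril-forming types I, III and V give connective tissue its tensile strength and come mainly from fibroblasts, types XII and XIV decorate the fibril surface, and type VI forms beaded microfibrils. Epithelia make chains that anchor them to the basement membrane, among them types VII, XVII and XVIII, and the membrane-spanning type XXIII. In the lung, the alveolar epithelium lies on a thin basement membrane, with collagen-producing fibroblasts directly beneath it.

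The cells carried epithelial transcripts in both groups. Epcam lay between 9.84 and 10.24 over the 8 arrays with a difference of 0.01 (SE 0.10). Sftpc, the surfactant protein of alveolar type 2 cells, lay between 13.30 and 13.44 and did not pass. It was the exception among 5 type 2 markers, of which 4 fell, where 10.2% of all genes fell. These were Abca3 (-1.05), Sftpb (-0.73), Lamp3 (-1.35) and Slc34a2 (-0.82). Transcripts of other cells were present too. Pdgfra, the receptor that marks lung fibroblasts, lay between 7.94 and 8.86 in control and between 8.32 and 9.09 in knockout arrays. Array medians lay between 7.21 and 7.30. Probe sets differ in brightness, so no level of one gene is set against that of another.

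Of the 38 collagen genes, 4 rose, 3 fell and 31 did not pass (limma, Benjamini-Hochberg adjusted p below 0.05 over all genes). The genes that rose were Col5a2, Col12a1, Col1a2 and Col15a1, or 10.5% of the members, where 8.60% of all genes rose. The genes that fell were Col23a1, Col8a1 and Col18a1, or 7.89%, where 10.2% of all genes fell. Together 18.4% of the members changed against 18.8% of all genes, so collagens as a whole changed about as often as other genes. In 5 members (13.2%) control and knockout arrays formed separate ranges, against 22.1% of all genes. The median difference of the members was -0.00016, against -0.02 over all genes. By role, all 5 fibroblast fibrillar chains had positive differences (median 0.46, 2 rose) and all 4 epithelial chains negative ones (median -0.21, 2 fell). Of the epithelial chains, Col7a1 (-0.01, SE 0.088) and Col17a1 (-0.05, SE 0.064) lay within 0.1 of no difference. Over all genes, 10959 of 19938 differences were negative.

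**Figure D1:**
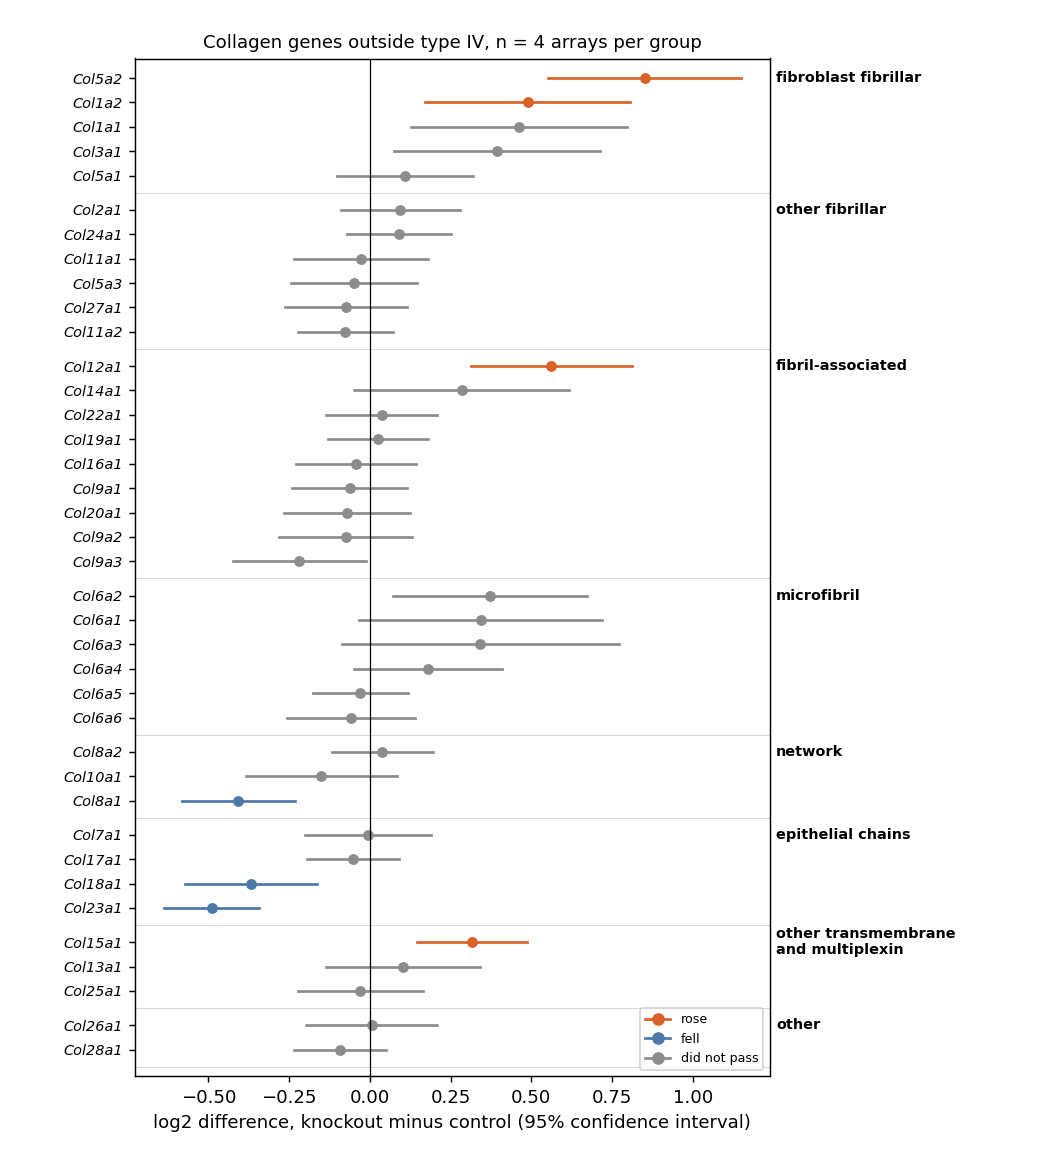
Log2 differences of the 38 collagen genes, grouped by role. Points are differences between the means of 4 knockout and 4 control arrays, lines are 95% confidence intervals, and colour gives the call at an adjusted p of 0.05. The 4 genes that rose lie on the right, from 0.32 (Col15a1) to 0.85 (Col5a2), and the 3 that fell lie on the left, from -0.37 (Col18a1) to -0.49 (Col23a1).

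Among the fibroblast fibrillar chains, Col5a2 changed most. It encodes the alpha 2 chain of type V collagen, a minor component that starts and limits the thickness of type I fibrils. Its control values were 7.25, 7.33, 7.33 and 7.45, and its knockout values were 7.79, 8.06, 8.48 and 8.43. Every knockout array lay above every control array, with knockout replicates 3 and 4 the highest. The rise was 1.80-fold (log2 difference 0.85, SE 0.13, n = 4 arrays per group, limma adjusted p = 0.00121). An exact two-sided permutation of the array labels, which has 70 arrangements and cannot give a smaller value, gave p = 0.0286.

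Col1a2, the alpha 2 chain of type I collagen, also rose, with overlapping groups. Its control values were 8.63, 8.64, 8.66 and 9.01, and its knockout values were 8.91, 9.02, 9.45 and 9.52. Control replicate 4 lay above knockout replicate 1. The rise was 1.40-fold (log2 difference 0.49, SE 0.14, limma adjusted p = 0.0369, exact permutation p = 0.0571). Leaving out control replicate 1, 2 or 3 ended the call of Col1a2 (adjusted p of 0.0958, 0.0871 and 0.0978), and so did leaving out knockout replicate 3 (0.111) or 4 (0.0705).

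Col1a1, the alpha 1 chain that pairs with Col1a2 in type I collagen, did not pass. It read 9.19, 9.24, 9.37 and 9.61 in control and 9.52, 9.56, 9.9996 and 10.19 in knockout arrays (difference 0.46, SE 0.15, 95% confidence interval 0.13 to 0.80, limma adjusted p = 0.0573). Its knockout replicates 1 and 2 lay below control replicate 4. It passed without control replicate 4 (adjusted p = 0.0392), knockout replicate 1 (0.0273) or knockout replicate 2 (0.0391).

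Col3a1, the single chain of type III collagen, which forms thin fibrils in distensible tissue, differed by 0.39 (SE 0.14, limma adjusted p = 0.0879). Its values were 8.33, 8.50, 8.58 and 8.69 in control and 8.60, 8.67, 9.20 and 9.20 in knockout arrays. Without knockout replicate 1 it passed (adjusted p = 0.0303). Col5a1, the alpha 1 chain of type V collagen, differed by 0.11 (SE 0.10, 95% confidence interval -0.10 to 0.32). Its knockout values of 7.81, 7.94, 8.13 and 8.26 spanned the control values of 7.82 to 8.02.

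**Figure D2:**
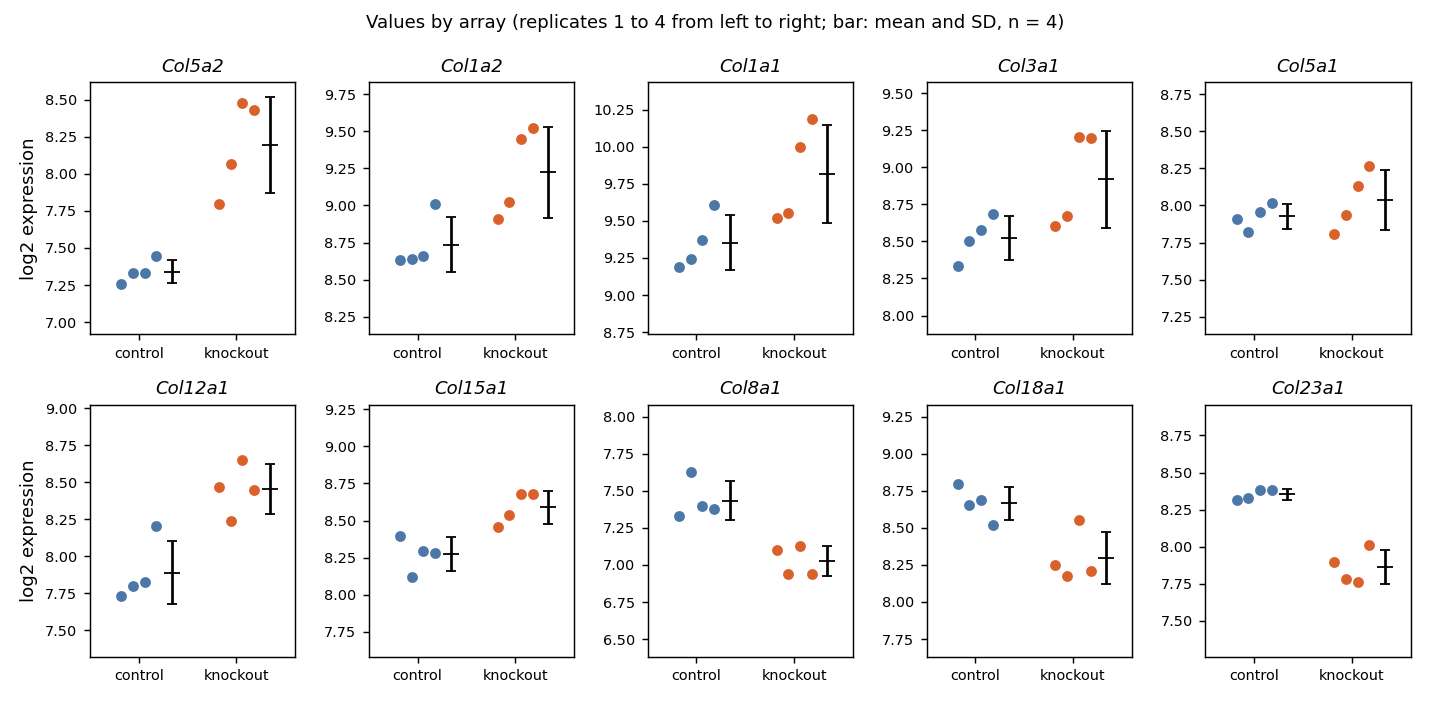
Log2 expression in each array for 10 collagen genes, with replicates 1 to 4 from left to right in each group and bars for the mean and SD (n = 4). All panels span the same log2 range. Col5a2 shows no overlap between groups, the knockout values of Col1a1, Col1a2 and Col3a1 split into a lower pair (replicates 1 and 2) and a higher pair (replicates 3 and 4), and Col23a1 has tight control values from 8.31 to 8.38.

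The fibril-associated collagens have short triple helices and sit on fibril surfaces. Of these 9 genes, Col12a1 rose and 8 did not pass. Col12a1, which links fibrils to other matrix molecules, read 7.73, 7.80, 7.83 and 8.20 in control and 8.47, 8.24, 8.65 and 8.45 in knockout arrays. The groups did not overlap, although control replicate 4 and knockout replicate 2 lay close together. The rise was 1.48-fold (0.56, SE 0.11, limma adjusted p = 0.00524, exact permutation p = 0.0286). Col14a1, the related fibril-surface chain of type XIV collagen, differed by 0.28 (SE 0.15, limma adjusted p = 0.247), with control values of 8.29 to 8.91 and knockout values of 8.51 to 9.11. Col16a1 (-0.04), Col19a1 (0.03), Col20a1 (-0.07) and Col22a1 (0.04), further members of this class, lay within 0.1 of no difference.

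Type VI collagen is assembled from Col6a1, Col6a2 and 1 further chain, most often Col6a3, into microfibrils around cells. None of the 6 type VI genes passed, and the intervals of Col6a1, Col6a2 and Col6a3 hold differences as large as that of Col1a2. Col6a1 read 8.25, 8.28, 8.51 and 8.77 in control and 8.45, 8.52, 9.14 and 9.07 in knockout arrays (difference 0.34, 95% confidence interval -0.03 to 0.72). Col6a2 differed by 0.37 (0.07 to 0.67, limma adjusted p = 0.0874) and passed without knockout replicate 2 (adjusted p = 0.0456). Col6a3 differed by 0.34 (-0.09 to 0.77), with knockout values of 8.59, 8.81, 9.42 and 9.53. In all 3 genes knockout replicates 3 and 4 lay above every other array. The alternative chains Col6a4 (0.18, SE 0.10), Col6a5 (-0.03, SE 0.067) and Col6a6 (-0.06, SE 0.090) did not pass either. The probe sets of Col6a5 and Col6a6 that were not used differed by -0.21 and 0.07.

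Of the 4 epithelial chains, Col23a1 and Col18a1 fell. Col23a1 encodes a collagen that spans the plasma membrane and can be shed from it. Its control values were 8.31, 8.33, 8.38 and 8.38, and its knockout values were 7.90, 7.78, 7.76 and 8.01. No knockout array reached the lowest control array. The fall was 1.40-fold (log2 difference -0.49, SE 0.066, limma adjusted p = 4.56e-04, exact permutation p = 0.0286). Col23a1 passed under all 19 other settings that were run, with differences from -0.58 to -0.46.

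Col18a1 encodes a proteoglycan of basement membranes whose end fragment is endostatin. It read 8.80, 8.65, 8.68 and 8.52 in control and 8.25, 8.17, 8.55 and 8.21 in knockout arrays. The groups overlapped through knockout replicate 3, which lay above control replicate 4. The fall was 1.29-fold (-0.37, SE 0.092, limma adjusted p = 0.0174, exact permutation p = 0.0571). The call ended without control replicate 1 (adjusted p = 0.0535), without knockout replicate 2 (0.0533) and without knockout replicates 1 and 4 together (0.122).

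The hemidesmosomal and anchoring chains did not pass. Col17a1, the transmembrane collagen of hemidesmosomes, lay between 6.80 and 6.97 in control and between 6.75 and 6.93 in knockout arrays (difference -0.05, 95% confidence interval -0.20 to 0.09). Col7a1, which forms the fibrils that anchor stratified epithelia, differed by -0.01 (-0.20 to 0.19). Among markers of basal cells, the epithelial cells known for these chains, Krt14 and Krt15 rose, by 0.35 and 1.05, while Trp63 (0.01, limma adjusted p = 0.903) and Krt5 did not pass.

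Col15a1 and Col18a1 form the multiplexin family, and they moved in opposite directions. Col15a1, a proteoglycan of the zone beneath basement membranes, read 8.39, 8.12, 8.30 and 8.28 in control and 8.45, 8.54, 8.68 and 8.68 in knockout arrays, with no overlap. The rise was 1.25-fold (0.32, SE 0.077, limma adjusted p = 0.0152, exact permutation p = 0.0286), and it missed the threshold without knockout replicate 3 (adjusted p = 0.0526). Endothelial cells make both proteins in many tissues. Of 5 endothelial markers 2 rose and 3 did not pass, with Pecam1, an adhesion protein of endothelial junctions, at 0.44 (SE 0.098). The mean of these markers lay between 9.33 and 9.66 in control and between 9.60 and 9.78 in knockout arrays. Summed on a linear scale they came to 3539 to 4454 and to 4185 to 4748. With that mean as a covariate, chosen after the data were seen, Col15a1 differed by 0.22 (limma adjusted p = 0.328) and Col18a1 by -0.31 (0.259). In that fit Col5a2 (0.64, limma adjusted p = 0.0660), Col12a1 (0.34, 0.209) and Col1a2 (0.14, 0.7004) missed the threshold as well, and Col23a1 was the only member that passed, while 2.86% of all genes rose and 4.14% fell.

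Col8a1, a short-chain collagen of hexagonal networks beneath endothelium, fell. It read 7.33, 7.63, 7.40 and 7.38 in control and 7.10, 6.94, 7.13 and 6.94 in knockout arrays. All knockout values were lower than all control values. Its mean over the 8 arrays lay below the median level of all genes (7.59). The fall was 1.33-fold (-0.41, SE 0.079, limma adjusted p = 0.00441, exact permutation p = 0.0286). Its partner gene Col8a2 differed by 0.04 (SE 0.071), and Col10a1, the related network collagen of growth cartilage, by -0.15 (SE 0.11, limma adjusted p = 0.403). With the endothelial marker mean as a covariate, Col8a1 missed the threshold (-0.31, limma adjusted p = 0.153).

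The cartilage collagens did not pass. Col2a1, the main fibrillar chain of cartilage, differed by 0.09 (SE 0.084), and its partners Col11a1 and Col11a2 by -0.03 (SE 0.093) and -0.08 (SE 0.066). Of the type IX chains that coat cartilage fibrils, Col9a1 and Col9a2 differed by -0.06 and -0.07, and Col9a3 by -0.22 (95% confidence interval -0.42 to -0.01, limma adjusted p = 0.144). Col9a3 passed as a fall without knockout replicate 4 (adjusted p = 0.0264). Chondrocyte markers, which would come with any airway cartilage, had a mean of 6.25 to 6.45 in control and of 6.38 to 6.50 in knockout arrays, and 1 of the 6 rose. Acan, the main cartilage proteoglycan, lay between 5.74 and 6.04 in all arrays.

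The remaining members also did not pass. Among minor fibrillar chains, Col5a3 differed by -0.05, Col24a1 by 0.09 and Col27a1 by -0.07. The transmembrane collagens Col13a1, found at cell junctions and adhesion sites, and Col25a1, known from neurons, differed by 0.10 (SE 0.11) and -0.03 (SE 0.088). Col26a1 and Col28a1 differed by 0.01 and -0.09. Of the 31 members that did not pass, 20 had a difference smaller than 0.1 in size. Of these, Col5a3, Col6a5, Col8a2, Col9a1, Col11a1, Col16a1, Col17a1, Col19a1, Col22a1, Col24a1, Col25a1 and Col28a1 had means below the median gene level (7.59). At a low level, a small difference cannot tell an unchanged transcript from one that was not detected. The confidence intervals of the 31 members lay between -0.42 and 0.80 in all. The smallest change that was called was that of Col15a1 (0.32). The intervals of Col1a1, Col3a1, Col5a1, Col6a1, Col6a2, Col6a3, Col6a4, Col13a1 and Col14a1 hold a rise as large. Those of Col9a3 and Col10a1 hold a fall of that size.

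Fibroblast markers differed between arrays in the same pattern as several chains. Of the 12 markers, none a collagen, 11 had positive differences, 1 rose (Pdgfrb, a receptor of mesenchymal and mural cells, 0.57, SE 0.16, limma adjusted p = 0.0297) and 11 did not pass. Their mean was 7.34, 7.41, 7.46 and 7.75 over the control arrays in replicate order, and 7.50, 7.62, 8.02 and 8.03 over the knockout arrays. Their summed linear level lay between 2737 and 3761 in control and between 3115 and 4985 in knockout arrays. The proteoglycan Lum was low throughout, at 4.51 to 4.69. In cells selected in bulk, more fibroblasts and more of a transcript per cell cannot be told apart.

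The mean of the 5 fibroblast fibrillar chains followed the same order within each group, at 8.26, 8.31, 8.38 and 8.55 over the control arrays and 8.53, 8.65, 9.05 and 9.12 over the knockout arrays. The mean of the 4 epithelial chains was 7.88 to 7.997 in control and 7.65 to 7.81 in knockout arrays, and the groups did not overlap. Of these chains only Col23a1 and Col18a1 were called, while Col7a1 (-0.01) and Col17a1 (-0.05) differed little.

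**Figure D3:**
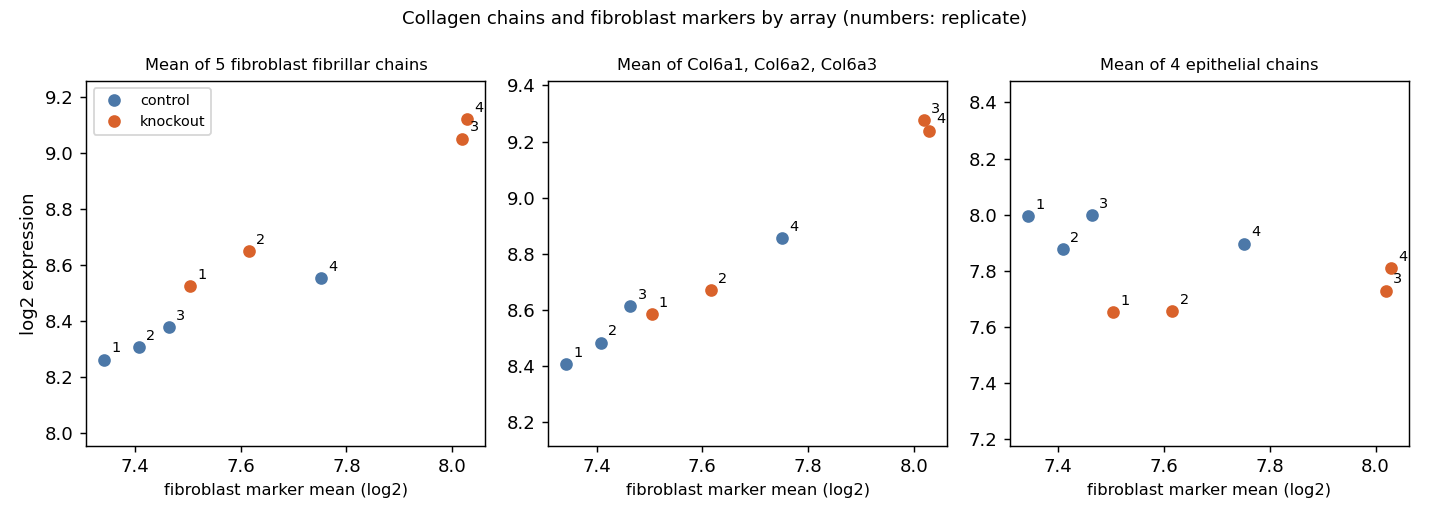
Per-array means of the fibroblast fibrillar chains (left), of Col6a1, Col6a2 and Col6a3 (middle) and of the epithelial chains (right) against the mean of 12 fibroblast markers, all in log2 units and numbered by replicate. The fibrillar and type VI means are highest in knockout replicates 3 and 4, where the marker mean is 8.02 and 8.03. The mean of the epithelial chains is lower in all 4 knockout arrays than in any control array. Within the knockout arrays it goes from 7.65 in replicate 1 to 7.81 in replicate 4, the arrays with the lowest and highest marker means.

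With the fibroblast marker mean as a covariate, the only member that rose was Col5a2 (0.57, limma adjusted p = 0.00262), and Col23a1 (-0.52, 0.00336) and Col8a1 (-0.39, 0.0358) fell. Col1a2 went to 0.16 (0.184), Col12a1 to 0.38 (0.0546), Col15a1 to 0.24 (0.146) and Col18a1 to -0.38 (0.0723). In that fit 4.97% of all genes rose and 6.11% fell, so calls were fewer throughout. Col1a1 (0.12), Col3a1 (0.08), Col6a1 (-0.05) and Col6a3 (-0.10) had little difference left. Without knockout replicates 3 and 4, an alternative chosen after the data were seen, 2 members rose, Col5a2 (0.59, limma adjusted p = 0.00288) and Col12a1 (0.47, 0.0455), and the 3 that fell were again Col8a1, Col18a1 and Col23a1.

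**Figure D4:**
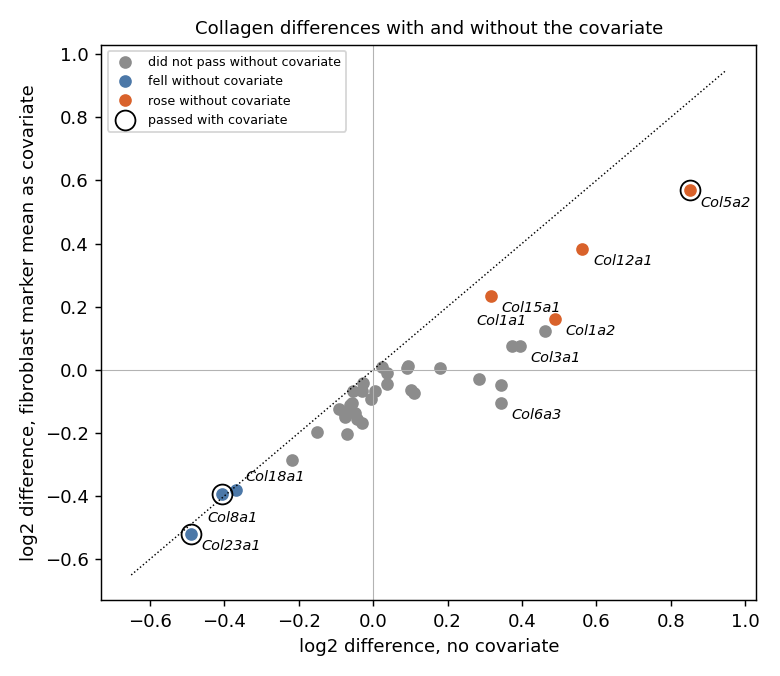
Log2 difference of each of the 38 members without a covariate (horizontal axis) and with the fibroblast marker mean as a covariate (vertical axis), with the dotted line marking equal values. Rings mark the 3 genes that passed with the covariate, Col5a2, Col8a1 and Col23a1. Col23a1, Col8a1 and Col18a1 lie close to the line, and the type I, III and VI chains lie near 0 on the vertical axis.

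The same fit gives each gene's slope on the fibroblast marker mean between arrays of the same group. A positive slope passed in 6 members, where 0.441% of all genes passed. These were Col6a3 (slope 1.49, SE 0.17, limma adjusted p = 0.00906), Col6a1 (1.30, SE 0.15), Col1a1 (1.13, SE 0.15), Col1a2 (1.09, SE 0.14), Col3a1 (1.06, SE 0.16) and Col6a2 (0.99, SE 0.16). A slope of 1 means that a chain rose by 1 log2 unit for each log2 unit of the marker mean. Only 5 of the 12 markers lay above the median level of all genes, so slopes are not read as proportions of fibroblast content. Col5a2 had a slope of 0.94 (SE 0.18, limma adjusted p = 0.0657). Slopes of the epithelial chains were 0.05 (SE 0.24) for Col18a1, 0.10 (SE 0.17) for Col23a1, 0.05 (SE 0.17) for Col17a1 and 0.29 (SE 0.21) for Col7a1. Without knockout replicate 1 no member passed, and 7 genes passed over the whole array. Without knockout replicate 2 the members that passed were Col6a1 and Col6a3, and 4 to 6 members passed without any other single array. Without control replicate 4, Col5a2 passed and Col6a2 did not.

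Differences within an array compare chains that share a protein, a locus or, for Col18a1 and Col15a1, a family. The pairs were chosen after the values were seen, so they carry no test. The control arrays had a Col1a2 minus Col1a1 of -0.62 ± 0.06 (SD, n = 4) and the knockout arrays of -0.59 ± 0.06, with overlapping ranges. These are the chains of type I collagen. Col6a1 minus Col6a2 also overlapped, going from -0.12 ± 0.08 to -0.15 ± 0.09, and Col6a3 minus Col6a1 stayed at 0.29 (SD 0.07 and 0.14). Col5a2 minus Col5a1 went from -0.58 ± 0.07 to 0.16 ± 0.15, and Col5a2 minus Col3a1 from -1.18 ± 0.08 to -0.73 ± 0.09, without overlap in either. Col3a1 and Col5a2 are next to each other among protein-coding genes in the RefSeq gene order of assembly GRCm38.p6, as are Col6a1 and Col6a2. Col8a1 minus Col8a2 went from 0.08 ± 0.13 to -0.37 ± 0.19 and Col18a1 minus Col15a1 from 0.39 ± 0.12 to -0.29 ± 0.16, again without overlap.

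Genes that make, process, crosslink, bind and cut collagen were read beside the chains. Of 20 assembly genes 6 rose, 4 fell and 10 did not pass (median 0.06), where 8.60% of all genes rose and 10.2% fell (median -0.02). The lists that follow are short and are to be read against the same shares. P4ha3, a catalytic subunit of the prolyl 4-hydroxylase that stabilises the triple helix, rose 2.16-fold, from 8.16 ± 0.35 (SD, n = 4) to 9.27 ± 0.17 (1.11, SE 0.15, limma adjusted p = 5.53e-04). The other catalytic subunits P4ha1 (-0.40, SE 0.088) and P4ha2 (-0.38, SE 0.074) fell, and P4hb of the same enzyme did not pass (0.01, SE 0.058). P3h1, which hydroxylates prolines at another position, rose by 0.31 (SE 0.056), as did the collagen chaperone Serpinh1 by 0.40 (SE 0.077), the lysyl hydroxylase Plod2 by 0.52 (SE 0.094) and the galactosyltransferase Colgalt1 by 0.39 (SE 0.080). Creb3l1, a membrane-bound transcription factor that activates collagen and secretory genes in bone, fell 3.13-fold, from 9.88 ± 0.15 to 8.23 ± 0.20 (-1.65, SE 0.10, limma adjusted p = 8.45e-06). Also in this list, P3h4 rose by 0.30 (SE 0.078) and Mia2 fell 2.21-fold (-1.14, SE 0.28, limma adjusted p = 0.0151).

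In procollagen processing, 1 of 7 genes rose and 2 fell (median -0.03), against 8.60% and 10.2% of all genes. Pcolce, an enhancer of procollagen C-proteinase, rose 1.88-fold (0.91, SE 0.094). Bmp1, the proteinase it enhances, fell 1.45-fold (-0.54, SE 0.079). Adamts3, a procollagen N-proteinase, fell by 0.29 (SE 0.090, limma adjusted p = 0.0476), and 7 of the 8 fits that each omit 1 array did not call it, the exception being the fit without control replicate 4. Of 4 crosslinking genes 1 rose (median 0.26): Lox, the lysyl oxidase, read 8.73 to 9.53 in control and 11.17 to 11.42 in knockout arrays (2.13, SE 0.15). Loxl3 (0.25, SE 0.083, limma adjusted p = 0.0570) and Loxl1 (0.27, SE 0.14) did not pass.

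Of 9 collagen receptor genes 4 rose and 5 did not pass (median 0.28), against 8.60% of all genes that rose. Ddr1, the receptor tyrosine kinase for collagen found on epithelia, rose 1.55-fold (0.64, SE 0.068, limma adjusted p = 1.03e-04). The collagen-binding integrin subunits Itga2 and Itgb1 rose by 0.44 (SE 0.084) and 0.28 (SE 0.059). Ddr2, also a receptor of this list, rose by 0.50 with overlapping groups (SE 0.16, limma adjusted p = 0.0494, exact permutation p = 0.0857). It was highest in knockout replicates 3 and 4 (8.30 and 8.33). Of 9 genes of collagen degradation 2 rose and 7 did not pass (median 0.13): Mmp14, a membrane-bound collagenase, rose 1.81-fold (0.85, SE 0.11), and Timp2, an inhibitor that also takes part in activating Mmp2, rose 1.97-fold (0.98, SE 0.069). Timp1, another inhibitor, did not pass (0.41, SE 0.13, limma adjusted p = 0.0580). With the fibroblast marker mean as a covariate, Lox (2.08), P4ha3 (1.15), Pcolce (0.97), Timp2 (0.98), Mmp14 (0.93), Ddr1 (0.63), Bmp1 (-0.48) and Creb3l1 (-1.55) still passed, and Adamts3 did not (-0.21, limma adjusted p = 0.302). With the endothelial marker mean as a covariate, Adamts3 (0.543), P3h1 (0.109), Itga2 (0.165) and Itgb1 (0.153) missed the threshold, with the limma adjusted p in parentheses.

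Of 7 fibril-binding proteoglycans 1 rose and 2 fell (median 0.21), against 8.60% and 10.2% of all genes. Aspn, asporin, rose by 0.74 (SE 0.15, limma adjusted p = 0.00649). It read 6.03, 6.17, 6.34 and 6.55 in control and 6.65, 6.85, 7.23 and 7.31 in knockout arrays, highest in knockout replicates 3 and 4. Its difference was 0.39 with the fibroblast covariate (limma adjusted p = 0.00787) and 0.44 with the endothelial one (0.244). Prelp and Fmod, which bind fibrils as well, fell by 0.27 (SE 0.070) and 0.32 (SE 0.091). Fmod missed the threshold when control replicate 1, 3 or 4 or knockout replicate 1 or 2 was omitted (adjusted p of 0.0736 to 0.102) and with the endothelial covariate (0.0908), and Prelp when control replicate 1 or 4 or knockout replicate 1, 2 or 3 was (0.0520 to 0.0635). Dcn, Lum and Ogn of this list are also fibroblast markers.

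**Figure D5:**
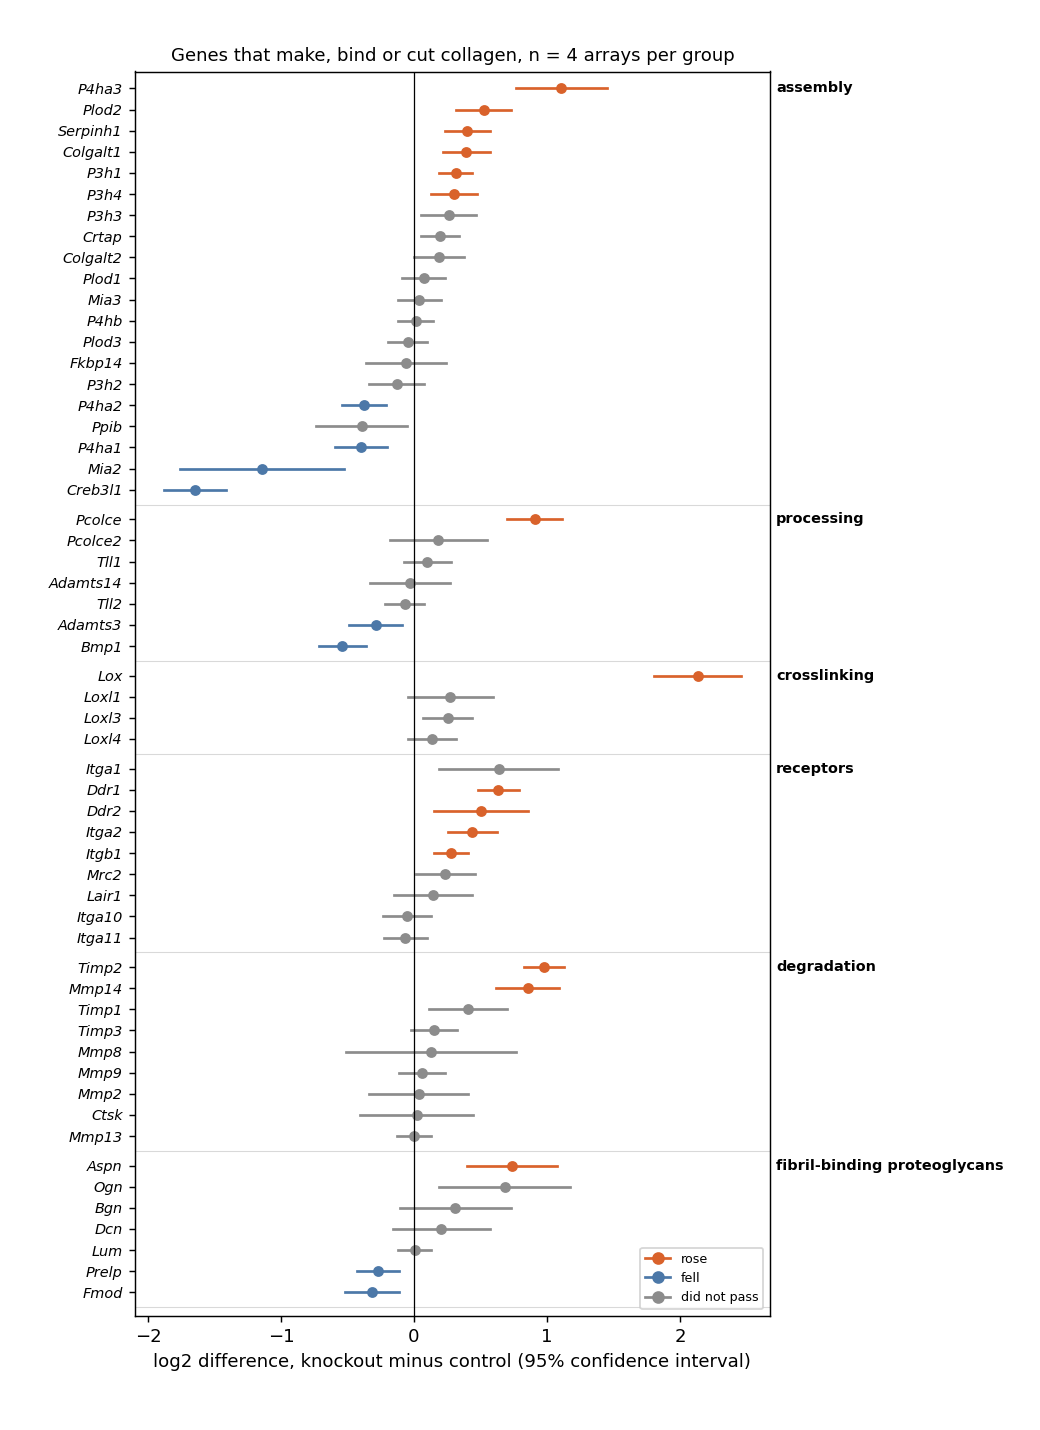
Log2 differences, with 95% confidence intervals, of genes for collagen assembly, processing, crosslinking, binding and degradation and of fibril-binding proteoglycans (4 arrays per group, coloured by call). Lox lies farthest to the right at 2.13 and Creb3l1 farthest to the left at -1.65.

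Other cell types were read with short marker lists. The marker counts here and above are to be read against the 8.60% of all genes that rose and the 10.2% that fell. None of 6 smooth muscle markers passed (limma, with Myh11 at 0.42 and adjusted p = 0.101). Among leukocyte markers 1 of 5 fell (Lyz2, -0.93, SE 0.086) and 4 did not pass, with Ptprc at 0.02 (SE 0.20). In this list 3 differences were positive (Csf1r at 0.34 the largest) and 2 negative (Laptm5 at -0.28 the other). The fall of Lyz2 was thus not shared by the list and is not read as a change in leukocytes. Among mesothelial markers 1 of 4 rose (Msln, 0.75, SE 0.065) and 3 did not pass, with Wt1 at 0.17 (SE 0.12). All 5 alveolar type 1 markers rose, with Ager at 0.24 (SE 0.062), 4 of 5 type 2 markers fell, and 1 of 5 general epithelial markers rose.

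Promoter sequences of the members were searched as well, and a link to the changes was not tested. They come from RefSeq, build GRCm38.p6, which holds 33 windows for 30 of the 38 members. The 250 bases before each annotated start were searched on both strands for GGAATG, which reads CATTCC on the opposite strand, the core bound by Tead factors, the partners of Yap and Taz, and for CCAAT, which reads ATTGG there, a box known from type I collagen promoters. GGAATG was found in 4 of the 33 member windows (12.1%) and in 12.6% of all 32851 windows, and CCAAT in 10 of 33 (30.3%) and in 33.8% of all windows. Neither letter string was more frequent in collagen promoters than in promoters at large. The members with GGAATG were Col3a1, Col6a2, Col18a1 and Col20a1. The stretches are shown because they hold matches in genes described above, with the matched letters in capitals: Col18a1, which fell, with 2 copies before its downstream start, and the fibrillar Col3a1 and Col1a2.
Col18a1, minus strand, chr10:77113706-77113825: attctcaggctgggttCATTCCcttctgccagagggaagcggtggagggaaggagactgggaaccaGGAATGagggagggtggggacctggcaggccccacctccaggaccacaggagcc
Col3a1, plus strand, chr1:45311358-45311477: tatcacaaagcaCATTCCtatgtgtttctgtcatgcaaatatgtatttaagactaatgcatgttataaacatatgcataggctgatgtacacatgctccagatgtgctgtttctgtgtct
Col1a2, plus strand, chr6:4505498-4505617: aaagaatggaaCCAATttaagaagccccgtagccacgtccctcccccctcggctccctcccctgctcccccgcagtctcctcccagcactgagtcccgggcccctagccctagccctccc
In Col18a1 the matches begin 104 and 54 bases before the start, in Col3a1 168 bases before it, and in Col1a2 the CCAAT begins 109 bases before it. A match is a run of letters and not a measured binding site. Col5a2, Col12a1 and Col1a1 have no window in the table used here.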

How the data were processed

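RNA of Epcam-selected lung cells was measured on 8 single-colour arrays, 4 per group. The authors deposited log2 expression for 35556 probe sets. The log2 scale was read from the values. The normalization and its software are not named by any source used here, and scaling between arrays would make each difference relative to the other probe sets. The platform annotation gave 21789 probe sets with 1 symbol, 1621 with several and 12146 with none given, and the former made up 19938 genes. Groups were compared with limma 3.58.1 in R 4.3.3 (lmFit, eBayes, two-sided, Benjamini-Hochberg over all genes, threshold 0.05), tested on simulated data. Errors are moderated standard errors or SDs over 4 arrays. The number of arrays limits the precision. If arrays were not separate animals, p-values measure only technical spread.

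The members, lists and alternatives were chosen with earlier results of these data known. All members are named, with the 3 genes of smallest p of each pathway list and the first marker of each marker list. Any other gene was picked for naming with its values in view. Listed genes without a probe set of their own (Fkbp10, Adamts2, Loxl2, Gp6) were not analysed here. The labels do not say whether replicate numbers pair the arrays. Deviations of same-numbered arrays correlated by -0.10 to 0.10 over all probe sets, which cannot exclude a pairing. Alternatives were a replicate block, fibroblast or endothelial marker means as covariates, median centring, quantile normalization, a filter on low values, probe set averaging, eBayes with trend, array weights and leaving out arrays. The covariate of endothelial markers and the fit without knockout replicates 3 and 4 were added later.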

Additional observations from a re-analysis of the deposited data

Results flagged for a closer look

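In 5 of 112 groups of 4 values, 1 array stood apart from the other arrays of its group by more than Dixon's 95% critical value for the gap over the range. Chance gives about 1 in 20. Control replicate 4 read 9.01 for Col1a2, against 8.63 to 8.66 in the other control arrays, and it was also the control array with the highest fibroblast marker mean. The same array read 9.66 for Creb3l1, against 9.93 to 9.96. Control replicate 2 read 7.76 for Col2a1, against 7.95 to 7.99. Knockout replicate 4 read 6.58 for Col19a1, against 6.39 to 6.41, and 8.05 for Col6a6, against 7.71 to 7.74.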

How the results depend on the processing

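The 19 alternatives gave 707 values for single members, of which 673 kept their side of the threshold, 22 lost the call and 12 gained it. No called difference changed sign, while 59 values of members without a call did. Col23a1 passed under all alternatives, Col5a2 under 18 of 19 (adjusted p = 0.0660 with the endothelial covariate) and Col1a2 under 10 of 19. With the fibroblast covariate 1 member rose, 2 fell and the median of the fibroblast fibrillar chains was 0.12. With the endothelial covariate 0 members rose (limma), 1 fell and that median was 0.14. Without knockout replicates 3 and 4, 2 members rose and the median was 0.18. With a replicate block 8 members rose, the added ones being Col1a1, Col3a1, Col6a1 and Col6a2. Whether the replicate numbers pair the arrays is not known. The causes were not tested. Among genes above the median level 23 members are left, and the median of the 3 epithelial chains left was -0.37, since Col17a1 is not among them. In that fit 5 members rose, Col1a1 being added, and 2 fell, since Col8a1 was dropped as well. Leaving out 1 array gave 2 to 6 risen members (2 without knockout replicate 3, 6 without knockout replicates 1 or 2) and 2 to 4 fallen ones, with medians of 0.34 to 0.56 and -0.25 to -0.17.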
